A study of Homo sapiens with 4 samples.

Results

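Integrin and laminin genes were followed across 4 arrays of HCT116, a long-established line of human colorectal carcinoma cells. The genes were all those with an integrin subunit symbol (ITGA or ITGB) or a laminin chain symbol (LAMA, LAMB or LAMC) on a probe set annotated to that symbol only. This gave 35 genes with 95 probe sets, of 19775 genes measured by the 54675 probe sets of the array. They comprised 18 integrin alpha subunits, 7 integrin beta subunits and 10 laminin chains. Probe sets annotated to ITGB6 also carried another symbol and were outside the rule.

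Integrins are cell surface receptors built from 1 alpha and 1 beta subunit, and they tie the extracellular matrix to the actin or keratin cytoskeleton. Laminins are secreted trimers of an alpha, a beta and a gamma chain that form the core of the basement membrane under an epithelium. In intestinal epithelium, ITGB1 pairs with several alpha subunits at matrix contacts, while ITGA6 with ITGB4 binds laminin at hemidesmosomes, the keratin-anchored junctions with the basement membrane. Leukocytes use a separate set of integrins built on ITGB2, and platelets use ITGA2B with ITGB3.

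The 4 groups had 1 array each, of HCT116 cells with short hairpin RNA #1 against KSR1, with hairpin #2 against KSR1, with the non-targeting hairpin vector shCTRL, and of untransfected cells. KSR1 is a scaffold of the RAF-MEK-ERK kinase cascade. The hairpin and shCTRL cells had been lipofected with a vector and selected as clones with puromycin, and the untransfected cells had not. The sources used here do not say whether an array represents 1 clone or several pooled, and vector, selection, clone, culture and array cannot be told apart. No group had a replicate array, so a difference between single arrays has no replicate check.

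Values are deposited linear intensities, and differences are given on the scale of log2(intensity + 16), which understates differences of dim probe sets. Each gene was represented by its brightest probe set on average, and it was analysed if that average was at least 6.08, the median over the whole array (called the filter below). Of the 35 genes, 25 were analysed, namely 12 alpha subunits, 6 beta subunits and 7 laminin chains, among 12468 analysed genes in all. The array medians lay between 50.7 and 52.0 intensity units. KSR1 itself had intensities of 141 with hairpin #1 and 171 with hairpin #2, against 211 in shCTRL and 209 in untransfected cells (log2 difference of both hairpin arrays minus both others -0.40, SE 0.12, limma adjusted p = 0.668). A further 3 probe sets of KSR1 stayed under the filter, with intensities between 27.8 and 60.4 and differences of -0.16, -0.04 and 0.02. The epithelial label held, with EPCAM intensities between 7855 and 8119 and all 8 epithelial markers analysed. Of these, VIL1 was near the filter, between 56.0 and 62.6, and CDX2 was dim, between 79.9 and 131. Of 7 leukocyte markers measured, 0 reached the filter, and their summed intensity was 162, 195, 194 and 185 in hairpin #1, hairpin #2, shCTRL and untransfected cells. Of 10 fibroblast markers 4 reached it (COL1A1 at 372 to 433, ACTA2 at 160 to 212, and THY1 and DCN near the filter), as did 1 of 6 endothelial markers (PECAM1) and 2 of 4 platelet markers (GP1BA and GP9).

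The largest distances between arrays belonged to ITGB8 and LAMB1. The distance between the highest and the lowest array had a median of 0.39 log2 units over the 25 analysed members, against 0.30 over all analysed genes. It reached 1.5-fold for ITGA2, ITGA5, ITGAE, ITGB5, ITGB8 and LAMB1, which is 6 of 25 members against 14% of all genes. It reached 2-fold for ITGB8 and LAMB1, against 3.87% of all genes. ITGB8 was the 1 member that reached the filter only through its highest array, shCTRL, with a mean of 5.96 over the other 3, so its distance was a condition of its being analysed. Among the other 24 members the distance reached 1.5-fold for 5 and 2-fold for 1, and its median was 0.38. The plot of members by array shows which array was responsible for each of these distances.

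**Figure D1:**
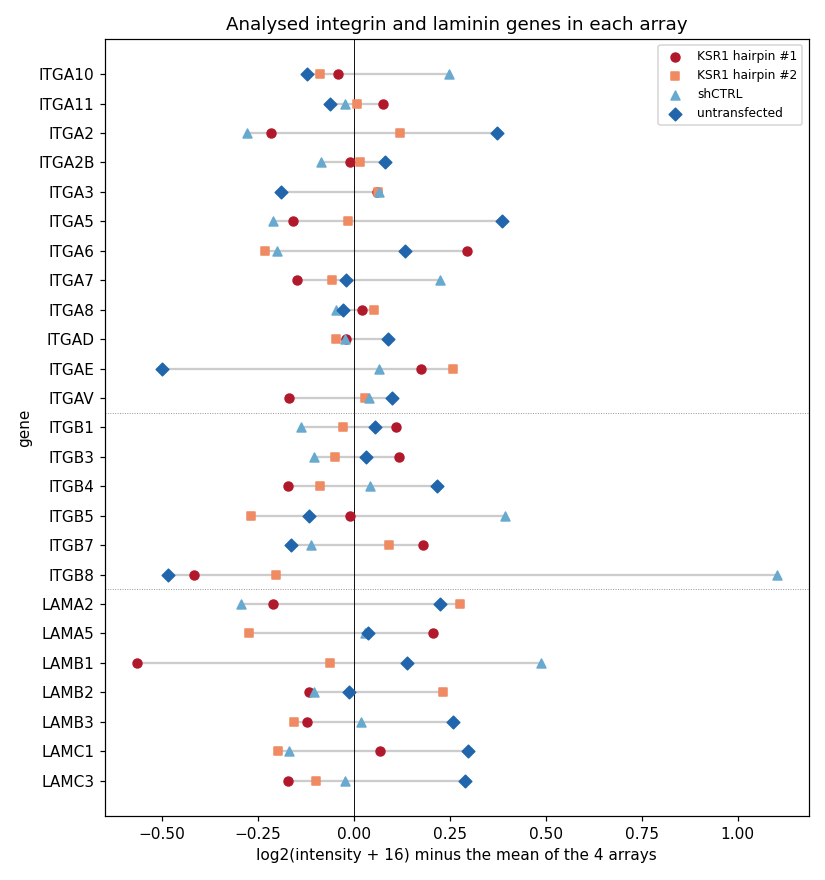
Each row is an analysed gene and each symbol 1 array; the horizontal axis is log2(intensity + 16) minus the mean of the 4 arrays, and the grey line spans the lowest to the highest array. The shCTRL array stands 1.30 log2 units above the next array for ITGB8, the hairpin #1 array 0.50 below the next for LAMB1, and the untransfected array 0.56 below the next for ITGAE.

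The central comparison set both KSR1 hairpin arrays against the shCTRL and untransfected arrays. None of the 25 members passed limma over all analysed genes (0 of 25, against 0% of all genes), and 2 members had an unadjusted p under 0.05. These were ITGB7, with 4.01% of all genes at that level and higher, and LAMB1, with 3.06% of all genes at that level and lower. The smallest adjusted p of a member was 0.668. This test had 2 residual degrees of freedom, which come from the distance between the hairpins and between the 2 control arrays and not from replicate cultures. Both hairpin arrays lay above both others for 4 members (ITGA8, ITGA11, ITGAE and ITGB7), against 22.5% of all genes. Both lay below for 6 members (ITGA7, ITGAV, ITGB4, LAMB1, LAMB3 and LAMC3), against 18.4% of all genes. In either direction that is 10 of 25 members, or 40%, beside 40.9% of all genes, so the members were apart about as often as any analysed gene. From the nearest hairpin array to the nearest control array the distance was under 1.5-fold for every member, whereas 0.0882% of all genes were higher and 0.329% lower by at least that. At 2-fold these shares were 0.0241% and 0.0321%. The median difference over the members was -0.07 log2 units, with 11 members above 0 and 14 below, beside a median of 0.02 over all genes, and it was 0.06 without the untransfected array.

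**Figure D2:**
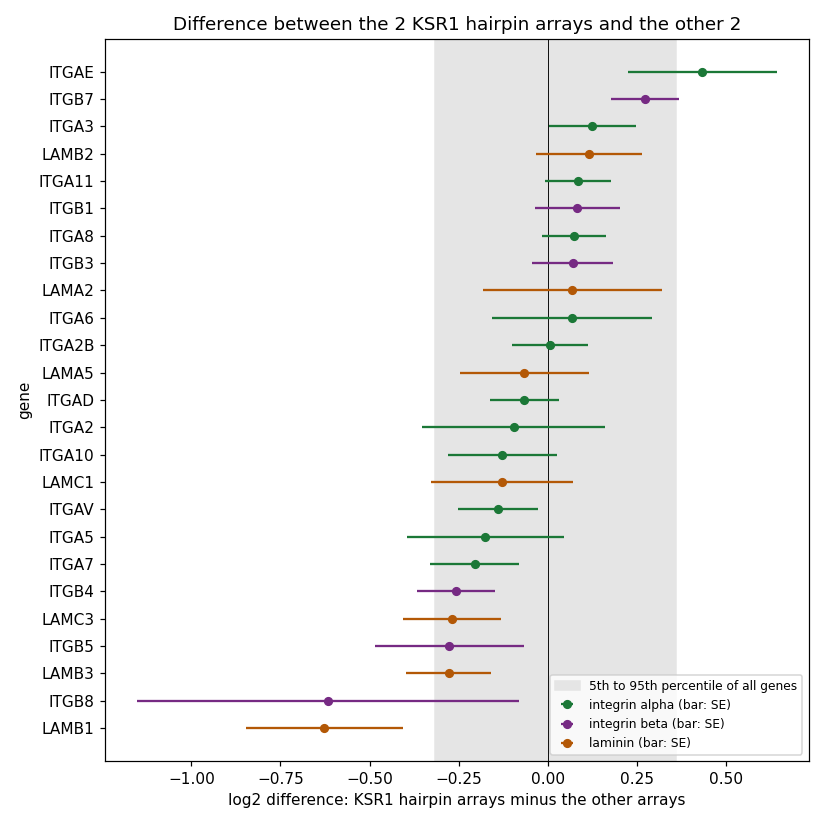
Points are the log2 difference of the 2 KSR1 hairpin arrays minus the other 2 arrays for each analysed member, bars are the SE of the limma model, and the grey band spans the 5th to 95th percentile of all analysed genes, -0.32 to 0.36. LAMB1, at -0.63, and ITGB8, at -0.62, lie below the band and ITGAE, at 0.43, above it, and the bar of ITGB8 is 0.54 log2 units to each side.

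Of the 6 members below both controls, 3 were laminin chains. LAMB1, the beta chain that joins most laminin trimers of epithelia and vessels, had intensities of 198 with hairpin #1 and 287 with hairpin #2, against 428 in shCTRL and 332 in untransfected cells. Both hairpin arrays were the lowest on this probe set and the groups did not overlap. The log2 difference between the sides was -0.63 (SE 0.22, limma adjusted p = 0.668), and it was -0.38 without hairpin #1. A second LAMB1 probe set had intensities of 152 with hairpin #1 and 206 with hairpin #2, against 279 in shCTRL and 196 in untransfected cells. There hairpin #1 was again the lowest and shCTRL the highest, while hairpin #2 lay slightly above untransfected cells, so on this probe set the groups overlapped. On the brighter probe set hairpin #1 minus shCTRL was -1.05 log2 units and hairpin #2 minus shCTRL -0.55. On the second they were -0.81 and -0.41. LAMB1 was the only analysed laminin chain with a 2-fold distance from shCTRL, and only on the brighter probe set. The promoter of LAMB1, shown because this gene had the largest difference among members whose sides did not overlap, lies on chromosome 7 at chr7:108003112-108003411 of build GRCh38.p14, minus strand (RefSeq, 250 bases before to 50 after the start). Capitals mark matches to the GC box GGGCGG on either strand, of which there were 4, a pair of them overlapping.
LAMB1: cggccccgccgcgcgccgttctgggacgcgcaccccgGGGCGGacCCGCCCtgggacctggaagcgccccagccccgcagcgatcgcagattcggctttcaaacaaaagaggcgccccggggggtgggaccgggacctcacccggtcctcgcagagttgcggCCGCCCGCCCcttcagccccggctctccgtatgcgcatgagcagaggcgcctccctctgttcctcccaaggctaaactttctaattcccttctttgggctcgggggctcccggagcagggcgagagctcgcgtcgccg

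LAMB3, the beta chain of the laminin that hemidesmosomes anchor to, was lower by a smaller distance. Its intensities were 214 with hairpin #1 and 209 with hairpin #2, against 237 in shCTRL and 283 in untransfected cells. The hairpin arrays lay together, below both others, with shCTRL nearer to them than untransfected cells were. The log2 difference between the sides was -0.28 (SE 0.12, limma adjusted p = 0.668), and shCTRL minus untransfected was -0.24. LAMC3, a further gamma chain, had 103 with hairpin #1 and 109 with hairpin #2, against 116 in shCTRL and 148 in untransfected cells. All 3 vector arrays were below the untransfected array, and the hairpin arrays differed from shCTRL by -0.15 and -0.08.

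LAMC1, the gamma chain that assembles with LAMB1, was highest in untransfected cells. Its brighter probe set had 746 with hairpin #1 and 618 with hairpin #2, against 630 in shCTRL and 878 in untransfected cells. The other had 444 with hairpin #1 and 388 with hairpin #2, against 412 in shCTRL and 755 in untransfected cells. The order of the 4 arrays was the same on both, with untransfected cells highest and hairpin #2 lowest, but the size differed. On the log2 scale shCTRL minus untransfected was -0.47 on the first and -0.85 on the second. LAMC1 and LAMA2 are named here after their values were seen.

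LAMA2, the alpha chain of muscle and nerve laminin, divided the arrays in another way. Its brightest probe set had 124 with hairpin #1 and 180 with hairpin #2, against 116 in shCTRL and 173 in untransfected cells. Hairpin #2 and untransfected cells were high and hairpin #1 and shCTRL low, so the hairpins lay on opposite sides. All 3 LAMA2 probe sets above the filter gave the same order of the 4 arrays. The difference of hairpin #2 minus hairpin #1 was 0.49, 0.31 and 0.37 log2 units on them. LAMA5, the alpha chain of most adult epithelial basement membranes, had 765 with hairpin #1 and 545 with hairpin #2, against 675 in shCTRL and 679 in untransfected cells. The controls lay together and the hairpins on either side of them, at 0.18 and -0.30 log2 units from shCTRL. LAMB2, the beta chain of synapses and kidney glomeruli, lay between 155 and 201 in all arrays. The chains LAMA1, LAMA4 and LAMB4 did not reach the filter. One LAMA4 probe set was at 14.3 with hairpin #1, 19.7 with hairpin #2 and 11.4 in shCTRL, against 75.7 in untransfected cells, while the 4 other LAMA4 probe sets showed no such distance.

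**Figure D3:**
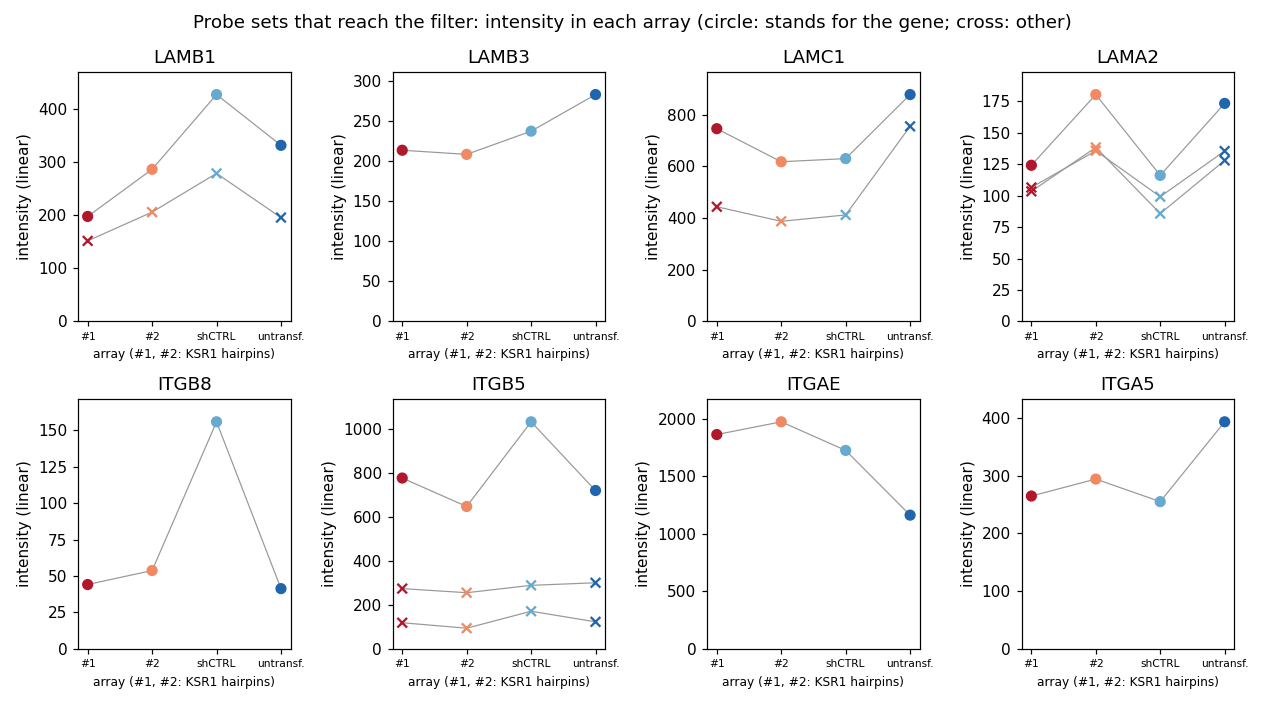
Each panel shows 1 gene, with linear intensity on the vertical axis from 0 and the 4 arrays along the horizontal axis; circles are the probe set that stands for the gene, crosses its other probe sets above the filter, and lines join values of 1 probe set. The LAMB1 probe sets are lowest with hairpin #1, ITGB8 is high in shCTRL only at 156, and LAMC1 and ITGA5 are highest and ITGAE lowest in untransfected cells.

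Among the beta subunits, the largest distance belonged to ITGB8 and lay in the shCTRL array. ITGB8, which pairs with ITGAV in a receptor that activates latent TGF-beta, had intensities of 44.1 with hairpin #1 and 53.7 with hairpin #2, against 156 in shCTRL and 41.3 in untransfected cells. The shCTRL array alone was high, and the other 3 were near or below the array medians. Hairpin #1 and hairpin #2 differed from shCTRL by -1.52 and -1.30 log2 units and from untransfected cells by 0.07 and 0.28, and shCTRL was 1.59 above untransfected cells. The difference between the sides, -0.62 (SE 0.54, limma adjusted p = 0.751), was 0.18 without the shCTRL array. With a pseudocount of 1 in place of 16 it was -0.71, larger than the -0.66 of LAMB1. The other ITGB8 probe sets did not reach the filter and had intensities between 10.1 and 19.1, so no second probe set bears on this distance. The ITGB8 promoter is shown because this gene had the largest distance between any pair of arrays among the analysed members. This promoter lies at chr7:20330650-20330949 of GRCh38.p14, plus strand (RefSeq). Capitals mark its 2 GC box matches.
ITGB8: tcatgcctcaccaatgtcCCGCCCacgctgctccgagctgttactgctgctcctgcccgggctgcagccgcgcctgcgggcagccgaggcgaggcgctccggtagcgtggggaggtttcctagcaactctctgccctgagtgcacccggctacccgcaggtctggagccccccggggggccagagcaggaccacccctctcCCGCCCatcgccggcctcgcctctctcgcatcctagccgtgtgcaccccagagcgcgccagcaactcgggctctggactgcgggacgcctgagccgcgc

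ITGB4, the laminin-binding subunit of hemidesmosomes, was slightly lower with both hairpins. Its intensities were 1297 with hairpin #1 and 1375 with hairpin #2, against 1507 in shCTRL and 1701 in untransfected cells. The groups did not overlap, and shCTRL also lay below untransfected cells (-0.17). The log2 difference between the sides was -0.26 (SE 0.11, limma adjusted p = 0.668). A second probe set had the same order of arrays, with 501 and 554 in hairpin #1 and #2 cells, against 573 in shCTRL and 620 in untransfected cells. On another, dimmer one hairpin #1 lay above untransfected cells.

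ITGB1, the beta subunit shared by most matrix receptors, had 7320 with hairpin #1 and 6652 with hairpin #2, against 6160 in shCTRL and 7047 in untransfected cells. The hairpin arrays overlapped the others, with shCTRL lowest. All 3 ITGB1 probe sets above the filter had hairpin #1 highest, at 0.25, 0.37 and 0.40 log2 units over shCTRL. ITGB5, a vitronectin receptor subunit that pairs with ITGAV, had 775 with hairpin #1 and 646 with hairpin #2, against 1030 in shCTRL and 718 in untransfected cells. Here shCTRL alone was high, and hairpin #1 lay above untransfected cells. A dimmer probe set repeated this high shCTRL value, with 118 and 93.0 in hairpin #1 and #2 cells, against 170 in shCTRL and 122 in untransfected cells, while the remaining one did not. ITGB7, the lymphocyte homing subunit that pairs with ITGAE or ITGA4, was dim, with 72.6 with hairpin #1 and 67.4 with hairpin #2, against 56.5 in shCTRL and 53.9 in untransfected cells. Both hairpin arrays were above both others, by a log2 difference of 0.27 (SE 0.10, limma adjusted p = 0.668).

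Among the alpha subunits, ITGAE and ITGA5 parted the untransfected array from all 3 vector arrays, in opposite directions. ITGAE, which with ITGB7 binds E-cadherin on epithelial cells, had 1863 with hairpin #1 and 1973 with hairpin #2, against 1725 in shCTRL and 1162 in untransfected cells. The untransfected array alone was low. Hairpin #1 and hairpin #2 were 0.67 and 0.76 log2 units above untransfected cells and 0.11 and 0.19 above shCTRL. The difference between the sides was 0.43 (SE 0.21, limma adjusted p = 0.672), and it was 0.15 without the untransfected array. ITGAE had 1 probe set, and in RefSeq its span also holds HASPIN and part of P2RX5. Its promoter is shown as the one of a member high in every vector array, at chr17:3801139-3801438 of GRCh38.p14, minus strand (RefSeq), and has no capitals because none of the 5 motifs searched was found.
ITGAE: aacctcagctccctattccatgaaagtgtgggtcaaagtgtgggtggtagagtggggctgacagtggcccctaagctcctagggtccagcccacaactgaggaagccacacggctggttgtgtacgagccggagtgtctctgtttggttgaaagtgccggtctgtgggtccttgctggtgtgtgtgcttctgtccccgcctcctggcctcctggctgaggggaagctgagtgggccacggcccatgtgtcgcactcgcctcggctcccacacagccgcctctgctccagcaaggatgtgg

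ITGA5, the fibronectin receptor subunit that pairs with ITGB1, had 264 with hairpin #1 and 294 with hairpin #2, against 255 in shCTRL and 393 in untransfected cells. The 3 vector arrays lay together below the untransfected array. Hairpin #1 and hairpin #2 differed from untransfected cells by -0.54 and -0.40 log2 units and from shCTRL by 0.05 and 0.19. The difference between the sides, -0.18 (SE 0.22, limma adjusted p = 0.834), was 0.12 without the untransfected array. Its promoter is shown because it was the only one among the member promoters with an AP-1 site, the motif bound by the FOS and JUN factors, at chr12:54419217-54419516 of GRCh38.p14, minus strand (RefSeq). Capitals mark 1 AP-1 match (TGANTCA, where N is any base) and 1 GC box match.
ITGA5: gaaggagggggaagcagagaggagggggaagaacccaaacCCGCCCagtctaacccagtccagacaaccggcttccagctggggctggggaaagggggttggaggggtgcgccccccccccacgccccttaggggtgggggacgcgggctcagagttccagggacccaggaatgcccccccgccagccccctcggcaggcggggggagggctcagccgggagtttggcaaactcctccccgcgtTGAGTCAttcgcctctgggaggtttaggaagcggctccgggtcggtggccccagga

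ITGA2, a collagen receptor subunit, had 746 with hairpin #1 and 945 with hairpin #2, against 714 in shCTRL and 1129 in untransfected cells. Hairpin #2 and untransfected cells were high and hairpin #1 and shCTRL low, as for LAMA2. A second ITGA2 probe set had 445 and 551 in hairpin #1 and #2 cells, against 471 in shCTRL and 569 in untransfected cells, with the same division. The difference between the sides, -0.10 (SE 0.26, limma adjusted p = 0.929), was 0.23 without the untransfected array and 0.07 without hairpin #1. ITGA6, the laminin receptor subunit that pairs with ITGB4 or ITGB1, is also named after its values were seen. It had 1351 with hairpin #1 and 933 with hairpin #2, against 952 in shCTRL and 1206 in untransfected cells. A second probe set kept that order, with 451 and 296 in hairpin #1 and #2 cells, against 312 in shCTRL and 319 in untransfected cells. Hairpin #1 was highest and hairpin #2 lowest on both, at 0.50 and -0.03 log2 units from shCTRL on the brighter.

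The other alpha subunits varied less. ITGAV, which serves several vitronectin and TGF-beta receptors, had 1337 with hairpin #1 and 1535 with hairpin #2, against 1546 in shCTRL and 1615 in untransfected cells. The nearest arrays of the sides were 0.01 log2 units apart, so the order rests on a very small distance. ITGA7, a laminin receptor subunit of muscle, had 88.8 with hairpin #1 and 95.5 with hairpin #2, against 120 in shCTRL and 98.3 in untransfected cells. Hairpin #2 and untransfected cells were nearly alike on this probe set. A dimmer one had 47.6 and 55.1 in hairpin #1 and #2 cells, against 67.1 in shCTRL and 70.5 in untransfected cells. There hairpin #2 minus untransfected was -0.28 log2 units. ITGA3, another epithelial laminin receptor subunit, had 494, 496 and 496 in hairpin #1, hairpin #2 and shCTRL cells, against 413 in untransfected cells. The remaining analysed members lay close to the filter. Of the 25 members, 8 had a mean between it and the 60th percentile of all probe sets, namely ITGA2B, ITGA8, ITGA10, ITGA11, ITGAD, ITGB3, ITGB7 and ITGB8. ITGA8 and ITGA11, counted above as higher with both hairpins, were among them, with intensities of 55.7 and 57.2 in hairpin #1 and #2 cells, against 52.5 in shCTRL and 53.3 in untransfected cells, for ITGA8. For ITGA11 the values were 57.4 and 54.1 in hairpin #1 and #2 cells, against 52.6 and 50.7 in shCTRL and untransfected cells.

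The leukocyte integrins built on ITGB2 and the platelet pair of ITGA2B with ITGB3 were dim, unlike ITGAE. ITGB2, the shared beta subunit of leukocyte integrins, was between 40.2 and 42.1 in all arrays. Its partners ITGAL, ITGAM and ITGAX did not reach the filter, and ITGAD was just above it, between 53.5 and 60.3. ITGAM, ITGAX and ITGAD are neighbours on chromosome 16. ITGA2B and ITGB3 of platelets were above the filter but close to it, between 53.4 and 61.9 and between 58.6 and 70.9, as was ITGB7. ITGA1, ITGA4 and ITGA9, which join ITGB1 in mesenchymal, lymphoid or muscle cells, did not reach the filter either. No detection calls were used, so such values are not told apart from background.

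Single pairs of arrays were compared by size only, with no test, and the sizes were taken on the log2(intensity + 16) scale. Comparisons with shCTRL share that array, as do those with untransfected cells, so their counts are not independent. Between hairpin #1 and shCTRL, 0 members were 2-fold higher (0.112% of all genes) and 2 were 2-fold lower, ITGB8 and LAMB1, against 0.433% of all genes. Between hairpin #2 and shCTRL, 0 were 2-fold higher (0.979%) and 1 lower, ITGB8, against 0.922% of all genes. Between shCTRL and untransfected cells, 1 was 2-fold higher, ITGB8, against 0.481% of all genes, and 0 were lower (0.369%). Between each hairpin and untransfected cells no member was 2-fold apart, beside 0.249% of genes higher and 0.505% lower for hairpin #1 and 1.29% higher and 0.987% lower for hairpin #2. Between hairpin #2 and hairpin #1 no member was 2-fold apart either, beside 1.07% higher and 0.642% lower. At 1.5-fold the hairpins also had 0 members apart from each other, beside 3.38% of genes higher and 2.24% lower with hairpin #2. At 1.5-fold, ITGAE was higher than in untransfected cells with hairpin #1 (1.98% of all genes) and with hairpin #2 (4.48%), and ITGB8 in shCTRL was above untransfected cells (2.14%). ITGA2 and LAMB1 were 1.5-fold lower with hairpin #1 than in untransfected cells, against 2.11% of all genes. With hairpin #2, 0 members were, against 2.94%. ITGA2 passed narrowly with hairpin #1, at -0.589 log2 units, and the second probe sets of ITGA2 and LAMB1 both gave -0.34. The hairpin #1 count was 0 with the mean over probe sets, 1 with median centring or a pseudocount of 64, and 3 with quantile normalization. ITGA2 and ITGA5 were 1.5-fold lower in shCTRL than in untransfected cells, against 1.55% of all genes. Relative to shCTRL, 0 members were 1.5-fold higher with hairpin #1 (0.914%) or hairpin #2 (3.56%). LAMA2 was the closest with hairpin #2, at a ratio of plain intensities of 1.55, and it passed this size with a pseudocount of 1 or after median centring. ITGB8 and LAMB1 were 1.5-fold lower than in shCTRL with hairpin #1, against 1.83% of all genes, and ITGB5 and ITGB8 with hairpin #2, against 3.22%. All but LAMB1 of the 2-fold distances rest on the high ITGB8 value of the shCTRL array. ITGB8 reached the filter only through that value, so its counts at either size cannot be weighed against these shares.

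The arrays also differed in how often each was the extreme one. Untransfected cells had the highest value of the 4 arrays for 9 of the 25 members (ITGA2, ITGA2B, ITGA5, ITGAD, ITGAV, ITGB4, LAMB3, LAMC1 and LAMC3), against 22.2% of all genes. The shCTRL array had the highest value for 6 members, against 24.2% of all genes, hairpin #1 for 6 against 23.3%, and hairpin #2 for 4 against 30.1%. The median of shCTRL minus untransfected was -0.09 over the members and 0.02 over all genes, with 16 of 25 members below 0. For hairpin #2 minus untransfected it was -0.08 over the members and 0.03 over all genes, and for hairpin #1 minus untransfected -0.09 and 0.02. Against shCTRL the member medians were 0.05 with hairpin #1 and -0.01 with hairpin #2.

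Where a gene had several probe sets above the filter, they could be set beside each other. This was so for 9 members with 22 probe sets. All 13 probe sets other than the one standing for the gene had the same sign of the difference between the sides as that one. The same array was highest on 10 of the 13 and lowest on 10 of the 13.

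Genes that work with integrins and laminins were examined from lists. Of 35 cytoplasmic partners measured, such as talins, kindlins and focal adhesion kinase, 33 were analysed. Of these 4 were higher and 9 lower with both hairpins than in both other arrays, against 22.5% of all genes higher and 18.4% lower, with a median difference of -0.06 log2 units beside 0.02 over all genes and 0 past limma (0 at an unadjusted p under 0.05). TGFB1I1, a paxillin relative, had the largest difference, with 135 with hairpin #1 and 265 with hairpin #2, against 407 in shCTRL and 286 in untransfected cells (-0.80, SE 0.35, limma adjusted p = 0.668). Hairpin #1 alone was far below the rest. TNS3 and TNS2, tensins that bind beta subunit tails, had differences of -0.41 and -0.36, with shCTRL highest, and CRKL, an adaptor of focal adhesions, -0.28.

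Of 34 matrix ligands and basement membrane genes measured, 19 were analysed, and 0 were higher and 8 lower with both hairpins than in both other arrays, against 22.5% of all genes higher and 18.4% lower. The median difference was -0.19 beside 0.02 over all genes, and 0 passed limma. At an unadjusted p under 0.05 there were 3, all lower, against 4.01% of all genes higher and 3.06% lower. The summed intensity of the 10 fibroblast markers, of which COL1A1, COL1A2 and COL3A1 are also in this list, was 823 with hairpin #1 and 794 with hairpin #2, against 868 in shCTRL and 893 in untransfected cells, and its part in these counts was not tested. LOXL2, an oxidase that cross-links collagen IV and other matrix proteins, had 363 with hairpin #1 and 301 with hairpin #2, against 694 in shCTRL and 851 in untransfected cells. Both hairpin arrays were well below both others, and the log2 difference of -1.18 (SE 0.16, limma adjusted p = 0.644) was larger than that of any integrin or laminin gene. ICAM1, the ligand of leukocyte integrins, had 97.0 with hairpin #1 and 93.0 with hairpin #2, against 162 in shCTRL and 125 in untransfected cells (-0.52, SE 0.14, limma adjusted p = 0.668). NPNT, nephronectin, differed by -0.47 and TINAGL1, a basement membrane protein, by 0.40, and in both the hairpin arrays overlapped the others. The collagen IV chains COL4A1 and COL4A2 did not reach the filter.

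Of 9 hemidesmosome partners and other laminin receptors measured, 8 were analysed, with 2 higher and 2 lower with both hairpins than in both other arrays, against 22.5% of all genes higher and 18.4% lower. The median was 0.04 beside 0.02 over all genes, and 0 passed limma. DST, whose epithelial form links ITGB4 to keratins, had 1377 with hairpin #1 and 771 with hairpin #2, against 1389 in shCTRL and 1568 in untransfected cells (-0.51, SE 0.29, limma adjusted p = 0.683). Hairpin #2 alone was low. SDC4, a syndecan of focal adhesions, differed by -0.41, and the tetraspanins CD9 and CD151 by 0.37 and 0.15.

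The promoter windows of the members were searched for motifs on both strands, as a description only. RefSeq windows were at hand for 24 of the 35 genes, 19 of them analysed members, and for 27305 genes in all. The shares of all windows given here also cover genes that were not analysed, so they are no matched background for the 19. The GC box GGGCGG was in 12 of the 19 and in 13 of the 24, against 44.6% of all windows. The ETS core CCGGAA was in 4 of the 19, those of ITGB1, ITGB5, LAMA5 and LAMB2, against 17.6% of all windows. The AP-1 site TGANTCA was in 1, that of ITGA5, against 7.76% of all windows. The E-box CACGTG and the TATA box TATAAA were each in 1, that of ITGA6, against 7.43% and 12.0% of all windows.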

How the data were processed

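Total RNA, 2.5 micrograms per array, was labelled and hybridised to 4 one-colour arrays, per the labels' protocols. The authors deposited linear intensity values, 1 per probe set and array, between 4.72 and 26251. The sources used here do not give their background correction, summary or normalization. The array medians were alike, so no further scaling was applied.

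Values were converted to log2(intensity + 16). Of 54675 probe sets, 41097 had 1 symbol, 1801 several and 11777 none, and 41043 of those with 1 symbol were matched to RefSeq GRCh38.p14 by gene identifier, with 0 symbols updated. Genes took their brightest probe set, and 12468 of 19775 were analysed. limma 3.58.1 in R 4.3.3 (lmFit, eBayes, Benjamini-Hochberg, threshold 0.05) was run over all analysed genes. The code was also tested on simulated data with equal, independent noise in every gene. That setting differs from these arrays, so it does not show what the test could detect here. Pairs of arrays were compared by 1.5-fold and 2-fold size rules. All members are named. Values in every array are given for members whose arrays were apart by side or by 1.5-fold, and the 4 largest differences are named per list. Those of ITGB1, ITGA3, ITGA6, LAMA2, LAMA5, LAMC1 and a LAMA4 probe set are also given, outside this rule. Members, lists and rules were chosen with earlier results of these data known. The alternatives were other filters, pseudocounts and normalizations, the mean over probe sets, and leaving out each array. Precision is limited by the number of arrays.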

Additional observations from a re-analysis of the deposited data

How the results depend on the processing

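Members were called by limma 0 times under each of the 11 alternatives. Of the 14 members followed singly, LAMB1 and 10 others kept the direction between the sides in every alternative that gave a value. In the 10 members whose sides did not overlap, leaving out an array or changing the filter or pseudocount could not turn it. Their direction under those settings was fixed in advance and is no support. The other 3 turned when 1 array was left out, ITGA2 (between -0.42 and 0.23), ITGA5 (between -0.47 and 0.12) and ITGB8 (between -1.41 and 0.18). The member median was between -0.078 and 0.064 with 1 array left out, and negative in the other alternatives. Members with both hairpin arrays higher numbered 4 of 25 (22.5% of all genes), against 1 of 17 with the filter at the 60th percentile (24.5% of all genes), 2 of 20 with the mean over probe sets (25.3%) and 6 to 10 of 25 with 1 array left out (35.8% to 39.7%), where fewer arrays have to be apart. Without a filter those higher numbered 4 of 35 (17.3%), with quantile normalization 4 of 25 (17.7%) and with median centring 5 of 25 (26.6%). Those lower numbered 6 of 25 (18.4% of all genes). They numbered 6 of 17 with the filter at the 60th percentile (16.4%) and 7 of 20 with the mean over probe sets (16.5%). Without a filter they numbered 7 of 35 (22.6%), with quantile normalization 6 of 25 (22.3%) and with median centring 5 of 25 (15.2%). With 1 array left out they numbered 7 to 11 (31.3% to 33.5%). Members 1.5-fold higher with hairpin #2 than in shCTRL numbered 0, but 1 with median centring and 1 with a pseudocount of 1. Members with a 2-fold distance between the sides numbered 0, or 0 to 1 with 1 array left out, the 1 being ITGB8 without the untransfected array. Members 2-fold apart between shCTRL and untransfected cells numbered 1, but 0 with the filter at the 60th percentile and 0 with the mean over probe sets, under both of which ITGB8 does not reach the filter. Between hairpin #1 and shCTRL they numbered 2, but 1 with the 60th percentile filter, 0 with the mean over probe sets and 1 with a pseudocount of 64. Between hairpin #2 and shCTRL they numbered 1, but 0 under each of these 3 settings. No paired analysis was possible because each group has 1 array. Values near the median of all probe sets, which hold 8 of the 25 members, cannot be told apart from background here.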
